A study of Mus musculus with 13 samples.

Results

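Melanosome trafficking was described through 10 genes in B16F10 mouse melanoma cells recovered from the lungs of mice that carried different alleles of apolipoprotein E. The 10 are Rab27a, Rab32, Rab38, Mlph, Myo5a, Hps1, Hps4, Hps5, Dtnbp1 and Bloc1s1. They were taken as a list of symbols, and each matched 1 row of the 22656 genes in the table. Host animals were APOE2 knock-in mice (8 libraries) and APOE3 knock-in mice (5 libraries), and their strain, sex and age are not given in the sources used here. Every mouse received the same B16F10-TR-shApoe cells by tail vein, a derivative of 1 tumour line whose name marks a hairpin RNA against its own Apoe, so this hairpin is shared by both groups. Lungs were digested on day 15, and living GFP+ CD45- cells were sorted before RNA was made into libraries that read transcript ends next to the poly(A) tail.

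Melanosomes are organelles of pigment cells that are related to lysosomes, and their enzymes are delivered from endosomes by 3 protein assemblies called BLOC-1, BLOC-2 and BLOC-3. The small GTPases Rab32 and Rab38 act on that delivery route, and BLOC-3, made of the products of Hps1 and Hps4, is the exchange factor that activates them. Once mature, a melanosome carries Rab27a, which binds the linker melanophilin (Mlph) and through it the actin motor myosin Va (Myo5a). Mutations of most of these genes are known from pale or diluted coat colours in mice, and in humans several cause Hermansky-Pudlak or Griscelli syndromes.

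Recovered reads ranged from 7284487 to 13039989 per library in APOE2 and from 7080308 to 8801867 in APOE3. The pigment gene Pmel was abundant in every library, with between 43422 and 70028 normalised counts. Summed over 8 melanocyte markers, levels ran from 35256 to 51165 per 1000000 normalised counts in APOE2 and from 26041 to 37708 in APOE3. RNA of lung cells was also present in every library, with higher medians in the APOE3 group. The summed level of 16 lung-epithelium markers ran from 80.4 to 488.9 per 1000000 normalised counts in APOE2 and from 421.5 to 2578 in APOE3. For 19 leukocyte markers the sums ran from 58.9 to 292.2 and from 251.4 to 1484. Lyz2, which myeloid cells and alveolar type 2 cells both express, made up from 36.9% to 90.4% of the leukocyte sum in APOE2 and from 73.5% to 96.7% in APOE3, and the pan-leukocyte gene Ptprc had at most 38.5 normalised counts. In sorted bulk samples, fewer cells of a type and less RNA per cell cannot be told apart.

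None of the 10 genes was called different between APOE2 and APOE3 hosts by limma, the main test. By it, 0 of 10 had a Benjamini-Hochberg adjusted p under 0.05, against 0.79% of the 12403 genes tested. A gene was tested when its mean reached 10 normalised counts, which all 10 did. Of the genes tested, limma called 51 higher and 47 lower in APOE2, 38 and 54 after scaling to equal totals, and 68 and 46 after TMM scaling. The 2 groups were fully apart, with no overlap of libraries, for 0 of 10 and for 0.984% of all genes. At an unadjusted p under 0.05 there were 4 of 10, beside 14.2% of all genes: Rab27a, Rab32 and Rab38 on the higher side in APOE2 (7.51% of all genes), and Hps5 on the lower side (6.71%). By edgeR's quasi-likelihood test on recovered reads 0 of 10 passed the adjusted threshold (1.11% of all genes). The unadjusted one was passed by 3 of 10, beside 1638 of all 12403 genes. By DESeq2 on the same reads 1 of 10 passed the adjusted threshold, Rab27a (2.51% of all genes). Unadjusted, DESeq2 gave 3 of 10, beside 1794 of all 12403 genes. The median log2 fold change of the 10 was 0.0082, beside 0.00037 over all genes tested, with 5 above 0 and 5 below. Their median absolute log2 fold change was 0.27, beside 0.22 over all genes.

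**Figure D1:**
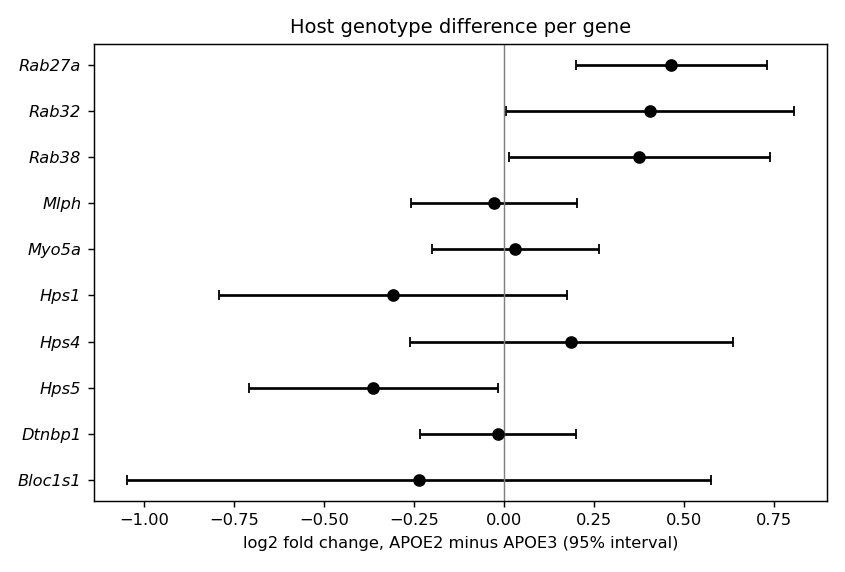
Log2 fold change of each of the 10 genes, APOE2 minus APOE3, on the log2(normalised count + 1) scale; points are limma estimates and bars their 95% intervals. The intervals of Rab27a, Rab32, Rab38 and Hps5 lie to one side of 0 before any adjustment for the number of genes, and those of the other 6 span it.

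The 3 Rab GTPases all had positive differences. Rab27a (ENSMUSG00000032202, GRCm38 chromosome 9, 73044854 to 73097629, + strand) is the GTPase that marks melanosomes for capture on actin. In APOE2 it had from 989 to 1492 normalised counts with a median of 1133. In APOE3 it had 997, 880, 973, 607 and 804 in replicates 1 to 5. Thus 7 of 8 APOE2 libraries lay above every APOE3 library, and the groups overlapped only through APOE2 replicate 2 and APOE3 replicate 1. Mean values were 1167 ± 149 (SD over 8 APOE2 libraries) and 852 ± 157 (SD over 5 APOE3 libraries), a log2 fold change of 0.47 ± 0.13 (SE) with a 95% interval from 0.20 to 0.73, or 1.38-fold (1.15 to 1.66). Its limma p was 0.00137 before and 0.0925 after adjustment over all genes. The unadjusted p stayed under 0.05 in each of the 13 fits that left out 1 library (5 of 13 for Rab32, 8 for Rab38 and 6 for Hps5), and the adjusted p of Rab27a passed in 1 of them, without APOE3 replicate 1 (0.0453). Exons of Gm27186 overlap Rab27a on the same strand, and how reads there were assigned or dropped is not given in the sources used here.

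In the libraries with the highest and the lowest Rab27a, the lung-epithelium sum stood at the opposite extreme. APOE2 replicate 3, with the highest Rab27a, had the lowest lung-epithelium sum (80.4), and APOE3 replicate 4, with the lowest Rab27a, had the highest (2578). The order did not hold throughout: APOE3 replicate 3 (sum 1591, Rab27a 973) was above APOE3 replicate 2 (924.2 and 880) in both. With the mean of the lung-epithelium markers as a covariate, the log2 fold change of Rab27a was 0.27 (limma adjusted p = 0.631), and with the leukocyte mean it was 0.41 (0.612). Over all genes tested, limma called 2 higher and 1 lower with the lung-epithelium covariate, and 0 and 0 with the leukocyte covariate. Of the 5 APOE3 libraries 4 had a lung-epithelium sum above every APOE2 library. Beyond these fits the part of lung RNA in the Rab27a difference was not tested.

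Rab32 and Rab38 are close relatives that both steer tyrosinase and Tyrp1 to the melanosome. Rab32 (ENSMUSG00000019832, chromosome 10, 10545002 to 10558265, − strand) had from 229 to 445 normalised counts in APOE2, with a median of 344, and 339, 158, 255, 310 and 250 in APOE3 replicates 1 to 5. The groups overlapped over much of this range. Its log2 fold change was 0.41, with a 95% interval from 0.0057 to 0.81 and a limma adjusted p of 0.344. Rab38 (ENSMUSG00000030559, chromosome 7, 88430273 to 88491572, + strand), whose loss gives the chocolate coat, had from 5688 to 11140 in APOE2, with a median of 7054. In APOE3 it had 6256, 2959, 6591, 6769 and 6914 in replicates 1 to 5. Apart from replicate 2, the APOE3 libraries fell among the lower APOE2 libraries. The log2 fold change of Rab38 was 0.38, with a 95% interval from 0.013 to 0.74 and a limma adjusted p of 0.336. Without APOE3 replicate 2 it was 0.14 for Rab38 and 0.24 for Rab32, which is less than either difference with it. With the leukocyte covariate, built mostly from markers with low counts, Rab38 was at −0.070 and Rab32 at 0.56. With the lung-epithelium covariate they were at 0.15 and 0.48.

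**Figure D2:**
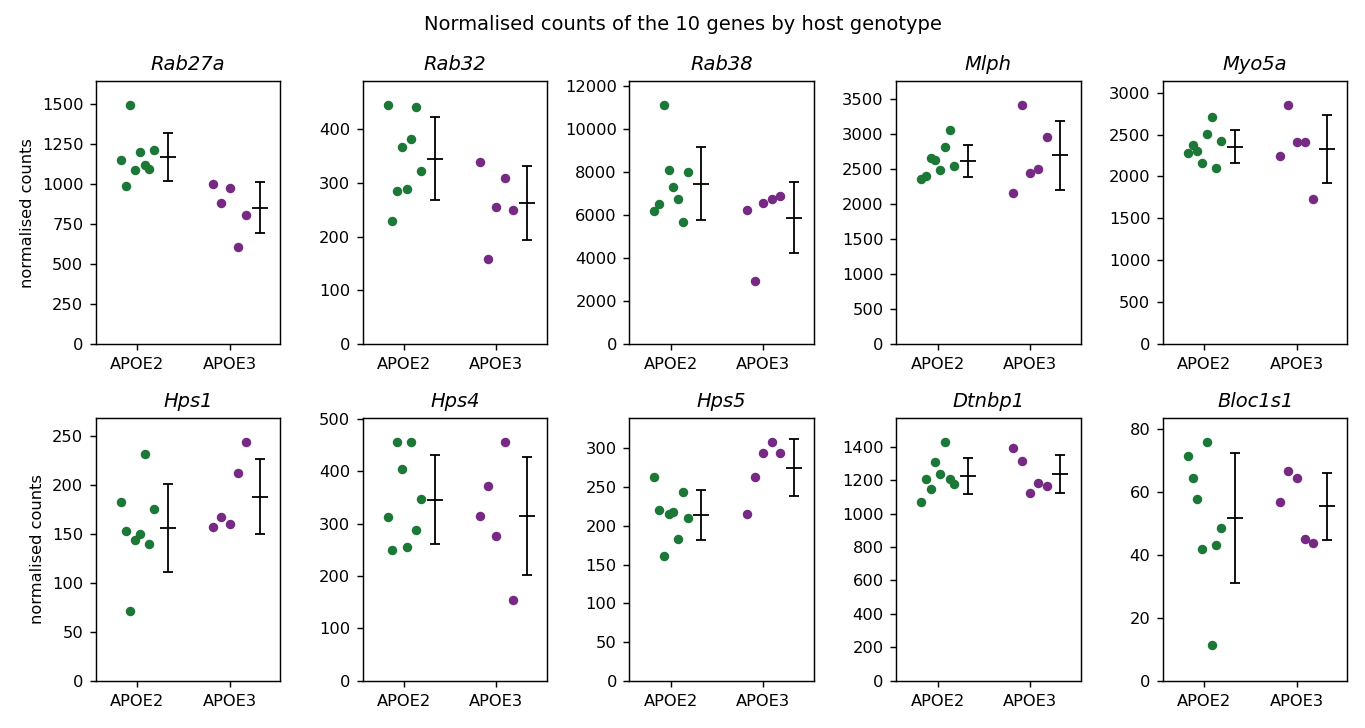
Normalised counts of the 10 genes in each library by host genotype (8 APOE2, 5 APOE3); points are libraries, and the bar beside them is the mean with 1 SD. For Rab27a, 7 of 8 APOE2 libraries lie above every APOE3 library, while for Mlph and Myo5a the APOE3 libraries reach past both ends of the APOE2 range.

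For the partners that tie Rab27a to actin, the APOE3 values reached past both ends of the APOE2 range, and the group means lay close together. Mlph (ENSMUSG00000026303, chromosome 1, 90915085 to 90951142, + strand), the linker mutated in leaden mice, had from 2366 to 3057 normalised counts in APOE2, with a median of 2589, and 2159, 3418, 2446, 2510 and 2966 in APOE3 replicates 1 to 5. The lowest and the highest Mlph values were both in APOE3. The log2 fold change was −0.028, with a 95% interval from −0.26 to 0.20 (limma adjusted p = 0.940), so a difference beyond 1.15-fold higher or 0.836-fold lower lay outside the interval. Myo5a (ENSMUSG00000034593, chromosome 9, 75071015 to 75223688, + strand), the motor mutated in dilute mice, had from 2105 to 2713 in APOE2, with a median of 2339. In APOE3 it had 2241, 2853, 2412, 2408 and 1728 in replicates 1 to 5. For Myo5a the estimate was 0.032 on the log2 scale, with a 95% interval from −0.20 to 0.26 (limma adjusted p = 0.933).

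The balance within this trio was read from ratios inside each library, which do not depend on how libraries were scaled. These ratios were chosen after the gene values had been seen and are given without a test. For Rab27a to Mlph the log2 ratio averaged −1.17 ± 0.21 over the 8 APOE2 libraries and −1.67 ± 0.42 over the 5 APOE3 libraries (SD). Of Rab27a to Myo5a it was −1.02 ± 0.20 and −1.45 ± 0.38 (SD). The ratio of Mlph to Myo5a was 0.15 ± 0.19 and 0.21 ± 0.34 (SD). Both Rab27a ratios were thus lower in APOE3 by about the spread of the APOE3 libraries, with 3 of 5 APOE3 libraries below every APOE2 library in each. In the ratio to Mlph these were replicates 2, 4 and 5, and in the ratio to Myo5a replicates 2, 3 and 4.

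The Hermansky-Pudlak genes had estimates of both signs. Hps1 and Hps4 encode the subunits of BLOC-3 and are mutated in pale ear and light ear mice. Hps1 (ENSMUSG00000025188, chromosome 19, 42755105 to 42779978, − strand) had from 71.7 to 231.5 normalised counts in APOE2, with a median of 151.7, and 157, 167, 160, 212 and 244 in APOE3 replicates 1 to 5. This gave a log2 fold change of −0.31, with a 95% interval from −0.79 to 0.17 (limma adjusted p = 0.581). Without APOE2 replicate 3 the estimate was −0.16, and with the lung-epithelium covariate it was 0.051. The lowest library, APOE2 replicate 3, also had the second highest Hps4, at 456. Hps4 (ENSMUSG00000042328, chromosome 5, 112343083 to 112378414, + strand) had from 250.3 to 456.1 in APOE2, with a median of 329, and 314, 372, 277, 455 and 154 in APOE3 replicates 1 to 5. For Hps4 the estimate was 0.19 on the log2 scale, with a 95% interval from −0.26 to 0.64 (limma adjusted p = 0.743), and −0.047 without APOE3 replicate 5. Exons of Gm16244 overlap Hps1, and exons of Gm20636 overlap Hps4, on the opposite strand.

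Hps5 was the one gene of the 10 with an interval below 0. It encodes a subunit of BLOC-2, the complex that targets cargo carriers from recycling endosomes to melanosomes. Hps5 (ENSMUSG00000014418, chromosome 7, 46760466 to 46796064, − strand) had from 161 to 264 normalised counts in APOE2, with a median of 216. In APOE3 it had 216, 263, 295, 309 and 294 in replicates 1 to 5. Each of the 8 APOE2 values was under the average of the APOE3 group on the log2 scale, and 3 APOE3 libraries lay above every APOE2 library. The difference was −0.36 ± 0.17 (SE) on the log2 scale, with a 95% interval from −0.71 to −0.017, or 0.778-fold, and a limma adjusted p of 0.330. Its lowest value was in APOE2 replicate 3 and its highest in APOE3 replicate 4, the libraries with the lowest and the highest lung-epithelium sums. With either the lung-epithelium or the leukocyte covariate the log2 fold change was −0.14, and the part of lung RNA in it was not tested further.

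BLOC-1 sorts cargo into tubules that leave the early endosome, and its subunits Dtnbp1 and Bloc1s1 did not separate the genotypes. Dtnbp1 (ENSMUSG00000057531, chromosome 13, 44922075 to 45002147, − strand), which encodes dysbindin and is mutated in sandy mice, had from 1070 to 1429 normalised counts in APOE2 and from 1123 to 1394 in APOE3. The means were 1223 ± 108 over 8 libraries and 1236 ± 113 over 5 (SD), and the ranges coincided almost entirely. Its log2 fold change was −0.015, with a 95% interval from −0.23 to 0.20 (limma adjusted p = 0.967). Among the 10 genes this was the smallest difference. Bloc1s1 (ENSMUSG00000090247, chromosome 10, 128917882 to 128924035, − strand), a subunit that BLOC-1 shares with the lysosome-positioning complex BORC, was the gene with the fewest reads, from 10 to 105 per library. It had from 11.3 to 76.0 normalised counts in APOE2, with a median of 53.2, and 56.9, 66.7, 64.5, 45.2 and 44.0 in APOE3 replicates 1 to 5. Its log2 fold change was −0.24, with a 95% interval from −1.05 to 0.58 (limma adjusted p = 0.833), and 0.043 without APOE2 replicate 6, the library with 10 reads. A difference of 2-fold lower therefore could not be told from none at this depth and spread. Exons of Rdh5 overlap Bloc1s1 on the same strand, and how reads there were assigned or dropped is likewise not given.

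**Figure D3:**
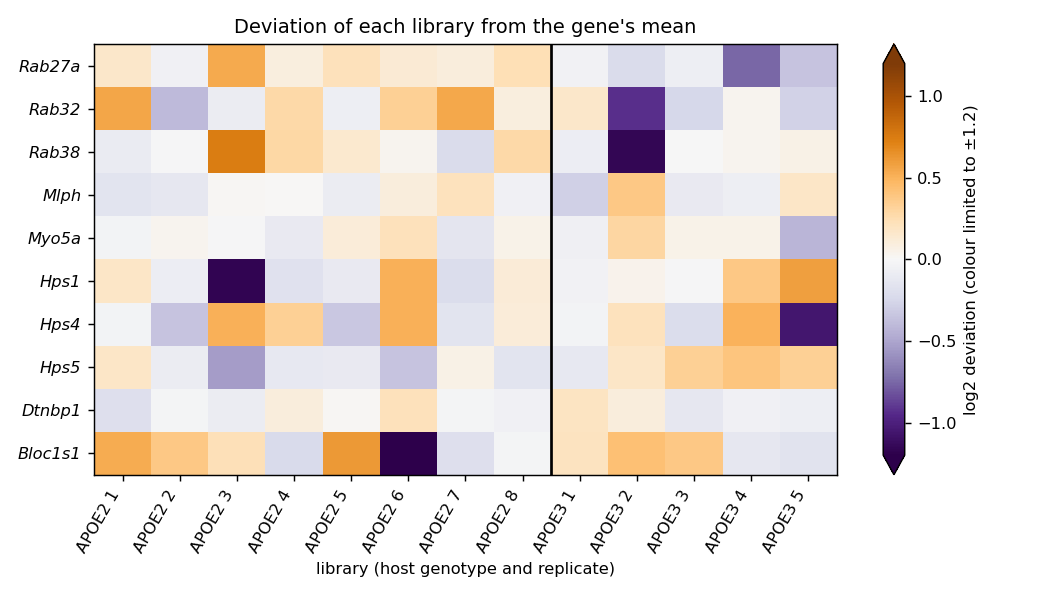
Deviation of each library's log2(normalised count + 1) from the gene's mean over the 13 libraries, with genes in rows and libraries in columns; the line parts APOE2 from APOE3. APOE3 replicate 2 is low for Rab32 and Rab38 together, and APOE2 replicate 3 is high for Rab27a and Rab38 and low for Hps1 and Hps5.

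Whether genes whose proteins work together also rose and fell together was asked in 6 pairs, after each genotype's mean had been subtracted. Within genotypes, Pearson's r over 13 libraries was −0.084 for Rab27a and Mlph, 0.070 for Mlph and Myo5a, 0.062 for Rab27a and Myo5a, 0.28 for Rab32 and Rab38, −0.25 for Hps1 and Hps4, and −0.57 for Dtnbp1 and Bloc1s1. Permutation p-values ran from 0.0577 to 0.892 before and from 0.346 to 0.892 after Benjamini-Hochberg adjustment over the 6 pairs. Spearman's rho ran from −0.30 to 0.25, with permutation p-values from 0.314 to 0.969 and adjusted values of 0.969 for each pair. Without the 2 libraries farthest from the median on the first gene, r was −0.48, −0.39, 0.38, −0.74, −0.32 and −0.21 in the same order of pairs. Its permutation p for Rab32 and Rab38 was then 0.00975 before and 0.0585 after adjustment over the 6 pairs. For the other pairs it ran from 0.237 to 0.555 before adjustment. The sign for Rab32 and Rab38 therefore rested on such libraries, chiefly APOE3 replicate 2, which was low in both. For Dtnbp1 and Bloc1s1, r was −0.13 without APOE2 replicate 6, the library with the fewest Bloc1s1 reads.

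Promoter sequences were examined for the E-box letters CACGTG and CATGTG, which the melanocyte factor MITF and its relatives bind. RefSeq windows on GRCm38.p6 were found for 9 of the 10 genes, and not for Rab38, with 2 start sites each for Rab27a and Hps1. For both Rab27a windows, unlike the others, the bases just after the start were not found in an annotated transcript of the gene. The windows before the second Rab27a start, before the Bloc1s1 start and before 1 of the 2 Hps1 starts lie wholly inside the annotated genes. Any match in them is therefore inside the gene. The 250 bases before each start were searched on both strands. CACGTG was found in 6.02% and CATGTG in 12.3% of all 32851 windows of that length, and either in 17.6%. Among the 11 windows of the 9 genes there were 7 matches, in Mlph, Hps5, Rab27a (second start), Bloc1s1 and Hps1. Hps5 and Bloc1s1 each held 2 of them in the same window. The shares above count windows, not matches, so the 7 are not to be set against them. They are shown to let the flanks be compared, written 5′ to 3′ on the gene's strand with the E-box in capitals.
Mlph, chr1:90915040-90915069: tcaggagtagccCACGTGatctgagccgca
Hps5, chr7:46796091-46796120: gggcgctgagggCACGTGaccggaaacgcc
Hps5, chr7:46796056-46796085: gggcctccggagCACGTGaccaccaccgcg
Rab27a, chr9:73063898-73063919: cttgCACGTGctcctccgtctg
Bloc1s1, chr10:128923526-128923555: aggctcttgcgtCACGTGatactgcgatca
Bloc1s1, chr10:128923697-128923726: cgacagccagagCATGTGaaaactgactct
Hps1, chr19:42779975-42780004: gcaggccccggtCATGTGgctgagtcacgt

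Of the 5 CACGTG matches 4 are followed by the letter a. Genes with a match had log2 fold changes from −0.36 (Hps5) to 0.47 (Rab27a). Genes with no match in any window were Rab32, Myo5a, Hps4 and Dtnbp1, with log2 fold changes from −0.015 to 0.41. The bases before the first Rab27a start and before Rab32 are printed because these are the windowed genes with the largest positive differences, and neither stretch holds an E-box of either kind. The Rab32 stretch is the 192 bases of its window before the annotated first exon, while the whole window was searched. A missing match says only that these letters are not in the stretch.
Rab27a, chr9:73044560-73044809, + strand: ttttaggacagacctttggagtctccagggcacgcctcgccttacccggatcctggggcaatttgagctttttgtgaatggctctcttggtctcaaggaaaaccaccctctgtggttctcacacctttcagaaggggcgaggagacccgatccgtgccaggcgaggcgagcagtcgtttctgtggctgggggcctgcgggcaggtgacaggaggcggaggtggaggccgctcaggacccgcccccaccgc
Rab32, chr10:10558266-10558457, − strand: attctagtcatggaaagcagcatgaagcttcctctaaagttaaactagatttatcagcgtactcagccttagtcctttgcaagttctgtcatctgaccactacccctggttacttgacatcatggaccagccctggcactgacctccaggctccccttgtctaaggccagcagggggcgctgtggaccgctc

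The wider pathway was followed in 76 further genes grouped by role, of which 74 were in the table and 67 passed the filter. With limma, 0 of 67 passed the adjusted threshold and 10 had an unadjusted p under 0.05 (5 higher and 5 lower in APOE2), against the same 0.79% and 14.2% of all genes. By edgeR on recovered reads 2 of 67 passed (1.11% of all genes), and by DESeq2 on the same reads 2 (2.51% of all genes, a share near that of the list). In both tools these were Bloc1s4 and Dct. Unadjusted, edgeR gave 10 of 67, beside 1638 of all 12403 genes, and DESeq2 gave 16 of 67, beside 1794. The median log2 fold change of the 67 was 0.017.

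Among the other BLOC-1 subunits, 1 of 6 had a limma unadjusted p under 0.05, beside 14.2% of all genes. This was Bloc1s4, which encodes cappuccino, with from 558 to 814 normalised counts in APOE2 (mean 733 ± 98.0, SD over 8 libraries) and from 429 to 609 in APOE3 (504 ± 67.2, SD over 5). Here 7 of 8 APOE2 libraries lay above every APOE3 library. The log2 fold change was 0.54 (95% interval 0.27 to 0.81) and the limma adjusted p 0.0520. Exons of Gm43701 overlap it on the opposite strand. For BLOC-2, neither Hps3 (0.32) nor Hps6 (0.76) passed, with limma adjusted p-values of 0.402 and 0.400. Of the 10 adaptor genes of AP-3 and AP-1, which act beside the BLOC complexes in sorting, 1 had an unadjusted p under 0.05, Ap1g1, at −0.35 (limma adjusted p = 0.177). Their median was −0.071.

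No regulator of the Rab proteins passed either threshold by limma. Of 8 tested, which include the prenylation enzymes that attach Rab proteins to membranes and the Rab32 and Rab38 effector Ankrd27, 0 had an unadjusted p under 0.05. The smallest p among them was that of Rabggta, at 0.70 (limma adjusted p = 0.355). Rab27b, the paralog of Rab27a, was below the filter with 0 to 48.0 normalised counts. Of the other Rab27 effectors, Sytl2 had 488 ± 67.9 normalised counts over the 8 APOE2 libraries and 497 ± 69.1 over the 5 APOE3 libraries (SD). Sytl1, Sytl3, Exph5 and Myrip had at most 8.47 in any library. Sytl4, which had the smallest p of the 3 effectors tested, had from 0 to 32.0 normalised counts in APOE2, with 3 libraries at 0, and from 0 to 34.3 in APOE3, with 1 at 0. It reached the minimum mean only through APOE3 (its mean in APOE2 was 8.07), so its difference is not read.

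In the fusion machinery 2 of 7 HOPS and VPS33 genes and 2 of 9 SNARE and carrier genes had a limma unadjusted p under 0.05. The share over all genes was 14.2%. There, Vps18 of the HOPS tethering complex was at 0.62 (limma adjusted p = 0.212), and Vps41 of the same complex at −0.34 (0.342), with a list median of −0.016. The SNARE Stx3 was at −0.41 (0.266) and the kinesin Kif13a, which carries endosomes toward melanosomes, at 0.38 (0.344), with a list median of 0.014. Of the other melanosome and endosome Rab genes, Rab11b, a GTPase of the recycling endosome, was at −0.53 (0.147), overlapped on the opposite strand by Gm17251. The median of those 8 was −0.12. In the group for actin transport and dispersion, 2 of 4 had an unadjusted p under 0.05, beside the same 14.2% of all genes. Mreg, which encodes melanoregulin, was at 0.78 (limma adjusted p = 0.250). Myo5c, a myosin V of epithelial cells singled out after its values were seen, was at −1.78 (0.285), with from 0 to 21.6 normalised counts in APOE2 and from 11.6 to 55.2 in APOE3. Myo5b was below the filter with 0 to 8.19 in APOE2 and 0 to 41.4 in APOE3. Both Myo5a relatives thus reached their highest values in the group with more lung-epithelium RNA, and its part in them was not tested.

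The cargo these genes deliver was measured beside them. Of 10 cargo genes, 8 had positive log2 fold changes, beside 6208 of all 12403 genes tested. Their median was 0.083, beside 0.00037 over all genes. By limma 0 of the 10 passed the adjusted threshold (0.79% of all genes), and 1, Dct, had an unadjusted p under 0.05 (14.2%). Dct, dopachrome tautomerase, had from 176606 to 323071 normalised counts in APOE2, with a median of 218146, and from 101484 to 208301 in APOE3, with a median of 149718. Its log2 fold change was 0.64 (95% interval 0.24 to 1.03, limma adjusted p = 0.126).

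**Figure D4:**
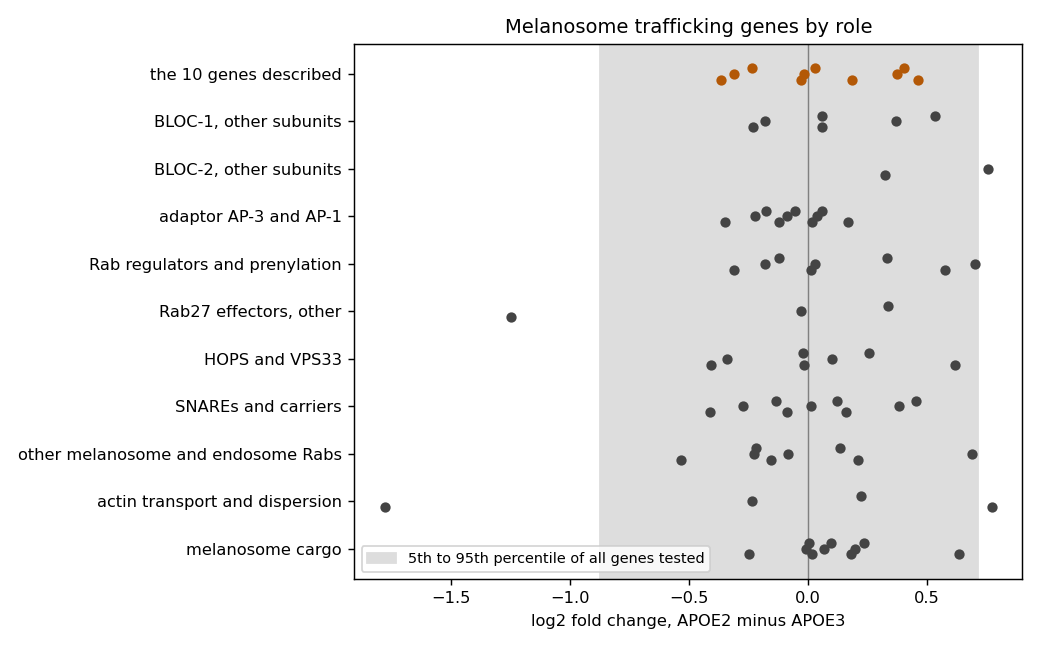
Log2 fold change, APOE2 minus APOE3, of every tested gene by role; each point is a gene, the 10 genes described are in orange, and the grey band runs from the 5th to the 95th percentile of all 12403 genes (−0.87 to 0.72). All 10 lie inside the band.

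By a fixed rule, the genes whose pattern over the 13 libraries was most like the mean of the 10 standardised genes were Tk2, Exoc1, Ndufs8, Tbc1d22b and Pias3, with Pearson's r from 0.80 to 0.85 among the 8271 genes whose mean reached 100 normalised counts. The 10 genes themselves had r from −0.46 (Bloc1s1) to 0.75 (Hps4) with that mean, which contains them. The 10 thus did not share 1 pattern over the libraries. The log2 fold changes of the 5 similar genes ran from 0.016 to 0.27.

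**Figure D5:**
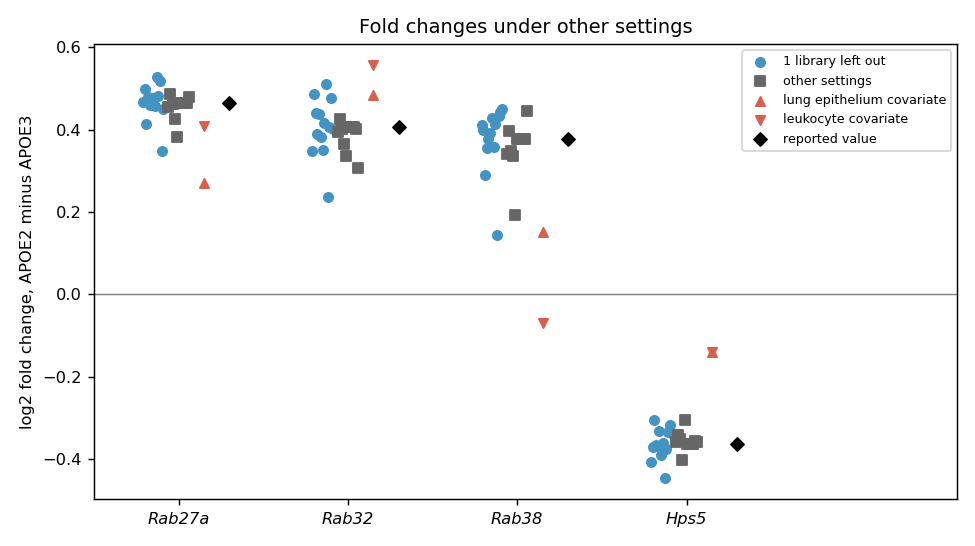
Log2 fold change of Rab27a, Rab32, Rab38 and Hps5 as reported (diamonds), with 1 library left out (blue circles), with the marker covariates (red triangles) and under other settings (grey squares). Rab27a, Rab32 and Hps5 keep their side of 0 throughout, and Rab38 falls to −0.070 with the leukocyte covariate, most of whose markers had low counts.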

How the data were processed

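RNA from 13 sorted tumour samples was measured by sequencing of transcript ends, from 8 APOE2 and 5 APOE3 mice per the labels; whether cultures or injections were shared is not stated, so p-values measure the spread between these samples. The authors deposited 1 signal value per gene and library, a normalised count. STAR 2.6.0, featureCounts, DESeq2 1.28.1 and mm10 are named in the submitters' processing notes; the strand setting and the annotation are not given in the sources used here. All nonzero values (100%) were whole multiples of 1 step per library within 0.001 read, so whole reads were recovered. Of 22656 identifiers 22649 matched a GENCODE M21 symbol.

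Values were analysed as log2(value + 1). Genes with a mean of at least 10 were tested with limma 3.58.1 (R 4.3.3, intensity trend, two-sided, Benjamini-Hochberg adjustment over all genes, threshold 0.05). All groups come from the genotype labels. Count tests with edgeR 4.0.16 and DESeq2 1.42.0 on the recovered reads were alternatives, as were other pseudocounts, scalings, filters, variance models, a replicate block, marker covariates and leaving out each library. The fits were tested on simulated data. Correlations used 100000 permutations within genotype. Genes from each role list are named when past the threshold, or else the 1 with the smallest p, and further genes (Hps3, Sytl2, Rab27b, Myo5b, Myo5c, Vps41, Kif13a and the low Rab27 effectors) were added after their values were seen. The members, lists and tests were chosen with earlier results of these data known. Transcript-end counts were not divided by length, so levels are not compared between genes. Reads carry no molecular identifiers, and their totals cover counting error only.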

Additional observations from a re-analysis of the deposited data

Results flagged for a closer look

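In each genotype, the highest and lowest library was compared for the 10 genes and for the 10 pathway genes named by rule, each with its nearest neighbour by Dixon's criterion. Of 40 such screens 4 stood apart, where chance gives about 2 (1 in 20). Rab27a in APOE2 replicate 3 was at 1492 normalised counts, with the next library at 1212. Rab38 was at 11140 in the same library, with the next at 8093. Rab38 in APOE3 replicate 2 was at 2959, with the next at 6256. Sytl4 in APOE2 replicate 8 was at 32.0, with the next at 14.8.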

How the results depend on the processing

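The 10 genes gave 0 calls in either direction under each of the alternatives run, with the exceptions of 1 higher (Rab27a) with DESeq2 (log2 fold change 0.45) and 1 without APOE3 replicate 1; leaving out libraries gave from 0 to 1. Apart from the fits that left out 1 library, the sign turned in 8 cases. Bloc1s1 was at 0.16 with the replicate block and 0.12 with the leukocyte covariate. Mlph was at 0.029 with that covariate and 0.048 with array weights. Rab38 was at −0.070 with the leukocyte covariate, and Hps1 at 0.051 with the lung-epithelium covariate. Dtnbp1 was at 0.0050 with TMM scaling, and Myo5a at −0.0090 with equal totals. Without 1 library the sign also turned for Mlph, Myo5a, Hps4, Dtnbp1 and Bloc1s1. Leaving out 1 library, log2 fold changes ran from 0.35 to 0.53 for Rab27a, −0.10 to 0.062 for Mlph, −0.071 to 0.11 for Myo5a, −0.40 to −0.16 for Hps1, −0.047 to 0.34 for Hps4, −0.048 to 0.029 for Dtnbp1 and −0.34 to 0.043 for Bloc1s1. Of the wider pathway's genes, from 0 to 1 was called higher without 1 library, 1 with TMM scaling, with a pseudocount of 5 or with a minimum mean of 50, and 2 with edgeR and with DESeq2. Pair correlations without 1 library ran from −0.28 to 0.16 (Rab27a and Mlph), −0.49 to 0.45 (Mlph and Myo5a), −0.013 to 0.21 (Rab27a and Myo5a), −0.44 to 0.46 (Rab32 and Rab38), −0.48 to 0.0020 (Hps1 and Hps4) and −0.67 to −0.13 (Dtnbp1 and Bloc1s1). Without the 2 farthest libraries, r was −0.39 for Mlph and Myo5a and −0.74 for Rab32 and Rab38.

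Over all genes, limma called 51 higher and 47 lower. DESeq2 called 153 and 158, edgeR 77 lower, a pseudocount of 5 gave 73 lower, no filter 5 and 4, limma without the trend 0 and 0, the lung-epithelium covariate 2 and 1, and the leukocyte covariate 0 and 0. Leaving out 1 library gave from 5 to 131 higher and from 4 to 97 lower. The cause of these shifts was not tested. Equal totals moved the median of all genes by less than 0.1. Replicate numbers did not pair the samples: same-numbered libraries' deviations correlated at −0.063 to 0.014, and none correlated best with its own number. The replicate block gave 17 higher and 26 lower.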

Other observations

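Myo5a and Mlph varied less between APOE2 than between APOE3 libraries, with coefficients of variation of 8.28% and 8.73% in APOE2 and 17.4% and 18.3% in APOE3, a contrast that was not tested. For Dtnbp1 these were 8.85% and 9.14%. Counting alone gives 1.13% for Rab38 in APOE2, where the spread was 22.8%, and 1.34% in APOE3, where it was 28.2%. For Bloc1s1 in APOE2 counting gives 13.4%, and the spread was 39.9%.

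The proteins of Hps1 and Hps4 form 1 complex. In APOE2 replicate 3 Hps1 was lowest and Hps4 second highest, and in APOE3 replicate 5 Hps1 was highest and Hps4 lowest of the 13 libraries. The log2 ratio of Hps1 to Hps4 was −2.65 in the first and 0.66 in the second, and between −1.49 and −0.70 in the other 11 libraries. This pair was singled out after its values had been seen, and the ratio was not tested.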
